A study of Mus musculus with 15 samples.

Results

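The sebaceous glands of mouse skin make sebum, an oily secretion rich in wax esters, cholesterol esters and triglycerides. Sebocytes fill with these lipids as they mature and then burst to release them, so the enzymes that build sebum mark gland cells that are close to secretion. Fatty acids are desaturated, elongated or hydroxylated, some are reduced to fatty alcohols, and acyltransferases then join alcohols or sterols to fatty acids. A total of 9 genes of this process were followed here: Far2, Awat2 and Dgat2l6 (fatty alcohols and wax esters), Scd1, Scd3 and Elovl3 (fatty acid desaturation and elongation), Fa2h (fatty acid hydroxylation), Soat1 (cholesterol esters) and Mc5r, the sebocyte receptor for melanocortin hormones. They were chosen by name, all 9 were found among the 56059 genes of the deposited table, and all 9 passed the filter on low counts that left 18651 genes for testing.

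The skin came from a mouse model of sclerodermatous graft-versus-host disease, in which transplanted donor immune cells attack the recipient's skin and the skin hardens. All 4 groups had received a bone marrow transplant and were dosed by mouth once a day between day 21 and day 49 afterwards. Syngeneic recipients (n = 4) and allogeneic recipients (n = 3) were given the vehicle, 0.4% methylcellulose. Other allogeneic recipients were given Wnt-C59 at 5 mg/kg (n = 4), an inhibitor of the enzyme porcupine that Wnt ligands need for their secretion, or Wnt-C59 at 5 mg/kg with the ROCK2 inhibitor belumosudil at 150 mg/kg (n = 4), called the combination below. Strains, sex, age, conditioning and the body site of the skin are not given in the sources used here. Nothing there says that each library is a separate animal, so p-values measure the spread between these 15 libraries. Treated libraries are named by the numbers in the deposited table, and those of the combination were matched to their group by elimination.

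Library totals were 16.26 to 20.39 M (mega) estimated counts in the vehicle groups and 18.99 to 28.78 M in the treated groups, with 22110 to 24283 genes detected. Vehicle and treated libraries stood apart in ways that run with treatment. Malat1, a nuclear RNA, was at 1071 to 3501 CPM in the 7 vehicle libraries and at 65.0 to 135.7 CPM in the 8 treated libraries. Fold changes rose with the GC content of the gene in both treated groups against allogeneic skin (Spearman rho across genes 0.52 for Wnt-C59 and 0.56 for the combination), whereas rho was -0.11 for allogeneic against syngeneic skin. A difference in library preparation between vehicle and treated skin therefore cannot be told apart from treatment. For the sebum genes followed here, each treated fold change below was also computed with the GC trend removed, as was the number of calls over all genes. Treated results for the other genes, gene lists, markers and summed levels named below are given without this step, so they carry the trend. Removing the trend changed the calls of Soat1, Mc5r and Far2 named below. It also turned several small uncalled values, which the closing paragraphs list.

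Levels are given in CPM, the count divided by the TMM-scaled library total in M (mega) counts, and levels of different genes are compared only in CPM per kb of transcript. In syngeneic skin Scd1 stood far above the rest at 395.7 ± 81.5 CPM per kb (SD, n = 4). It was followed by Fa2h at 61.2 ± 24.7, Far2 at 43.6 ± 7.87, Elovl3 at 40.7 ± 21.1 and Scd3 at 30.0 ± 8.21 CPM per kb. Awat2 (15.8 ± 8.11), Soat1 (10.8 ± 2.36), Dgat2l6 (10.5 ± 3.85) and Mc5r (9.06 ± 1.84 CPM per kb) formed the lower end. Beyond the step down from Scd1, most neighbours in this order lay within each other's spread. In allogeneic skin the order was different, since Scd1 (168.8 ± 140.3 CPM per kb, n = 3) and Soat1 (7.91 ± 3.40) were followed by 7 genes with means of 1.01 CPM per kb or less.

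The 9 genes lie on 6 chromosomes, and some are close relatives. Scd3, Scd2, Scd4 and Scd1 follow each other in this order on chromosome 19, which also carries Elovl3. Awat2 and Dgat2l6 are on the X chromosome, where Dgat2l6 is next to Awat1, another wax alcohol acyltransferase. Far2 is on chromosome 6, Fa2h on 8, Soat1 on 1 and Mc5r on 18. The coding sequences of Scd1 and Scd3 were 91.5% identical over 1068 aligned bases, with an identical run of 185 bases. A start-proximal stretch of 90 coding bases is shown for both (coding bases 76 to 165 of Scd1 and 88 to 177 of Scd3, GENCODE M21 transcripts), because reads from such stretches decide how far the 2 genes can be told apart. Capitals mark the 4 bases that differ.

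Scd1: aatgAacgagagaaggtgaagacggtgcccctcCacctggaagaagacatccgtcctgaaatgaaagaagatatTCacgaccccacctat

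Scd3: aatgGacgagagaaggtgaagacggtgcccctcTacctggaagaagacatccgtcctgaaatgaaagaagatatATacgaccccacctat

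A second stretch of 90 bases, coding bases 490 to 579 of Scd1 and 502 to 591 of Scd3, was the same in both genes. It is shown because a read that falls inside it fits both genes equally well.

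Scd1 and Scd3: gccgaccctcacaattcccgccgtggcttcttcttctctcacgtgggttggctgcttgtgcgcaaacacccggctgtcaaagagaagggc

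Of all 50-base words in the longest protein-coding transcript, 4.66% in Scd1 and 6.66% in Scd3 also occurred in another gene, against 0.0874% in Far2, 0.601% in Soat1 and 0% in Awat2, Dgat2l6, Elovl3, Fa2h and Mc5r. How ambiguous reads were divided is not given in the sources used here, so the levels of Scd1 and Scd3 carry that uncertainty. Awat2 and Dgat2l6, which belong to the same acyltransferase family and moved together in the results below, were only 62.4% identical with a longest identical run of 20 bases. Coding bases 542 to 631 of both are shown for contrast with the desaturase pair, with the 42 differing bases in capitals.

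Awat2: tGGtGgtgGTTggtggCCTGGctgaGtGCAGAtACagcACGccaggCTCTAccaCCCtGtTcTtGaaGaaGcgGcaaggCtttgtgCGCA

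Dgat2l6: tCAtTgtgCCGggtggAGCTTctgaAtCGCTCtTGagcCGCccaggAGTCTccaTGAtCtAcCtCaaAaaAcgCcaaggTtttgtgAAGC

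Promoter sequences for 250 bases before the start were taken from RefSeq (build GRCm38.p6) for Far2, Scd3, Awat2, Dgat2l6 and Soat1 only. Awat2 had 2 start sites, which gave 6 windows in all. Windows of 4 members whose RNA moved together are shown, each read 5′ to 3′ on the strand of its gene and ending just before the start, with matches to the motifs searched in capitals.

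Far2 promoter, chr6:148047166-148047415 (+ strand): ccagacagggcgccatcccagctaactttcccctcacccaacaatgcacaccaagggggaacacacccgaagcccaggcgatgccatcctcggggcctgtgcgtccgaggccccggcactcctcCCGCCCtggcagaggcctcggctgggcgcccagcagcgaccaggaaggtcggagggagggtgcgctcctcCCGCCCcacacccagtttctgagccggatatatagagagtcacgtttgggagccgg

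Awat2 promoter, chrX:100412588-100412837 (- strand): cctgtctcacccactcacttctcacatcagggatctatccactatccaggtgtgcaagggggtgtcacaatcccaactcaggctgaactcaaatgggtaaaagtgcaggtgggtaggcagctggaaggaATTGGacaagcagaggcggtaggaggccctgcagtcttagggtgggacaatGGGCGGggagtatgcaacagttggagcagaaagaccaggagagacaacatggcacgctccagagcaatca

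Dgat2l6 promoter, chrX:100524588-100524837 (+ strand): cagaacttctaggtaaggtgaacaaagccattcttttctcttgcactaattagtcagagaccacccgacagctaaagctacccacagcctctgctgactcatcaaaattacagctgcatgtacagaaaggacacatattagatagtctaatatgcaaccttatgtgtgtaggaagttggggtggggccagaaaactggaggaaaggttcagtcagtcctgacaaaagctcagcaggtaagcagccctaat

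Scd3 promoter, chr19:44203038-44203287 (+ strand): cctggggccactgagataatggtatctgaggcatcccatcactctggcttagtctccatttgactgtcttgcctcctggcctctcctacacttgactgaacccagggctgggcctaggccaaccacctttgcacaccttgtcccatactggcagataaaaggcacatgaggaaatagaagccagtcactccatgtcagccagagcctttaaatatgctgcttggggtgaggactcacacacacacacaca

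The motifs were searched on both strands. The NF-Y box CCAAT occurred in 3 of the 6 windows (both Awat2 windows and Soat1) against 33.8% of all 32851 promoter windows of that length, and the GC box GGGCGG in 2 of 6 (Far2 and the Awat2 window shown) against 32.7%. None of the 6 windows held the nuclear receptor site AGGTCA, found in 14% of all windows, or the box TATAAA, found in 12.4%. The E-box CACGTG (6.02% of all windows), the sterol response element TCACNCCAC (1.05%) and the site CTTTGAT of the Wnt-regulated factors Tcf and Lef (3.21%) were likewise not in these letters. No motif searched was therefore shared by all 6 windows. Scd1, Elovl3 and Fa2h had no entry in the promoter set, and Mc5r was left out of the search. The motif counts therefore do not cover these genes.

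Allogeneic skin was compared with syngeneic skin first, which asks what the foreign graft does under vehicle alone. In this comparison 7 of the 9 genes fell, Far2, Awat2, Dgat2l6, Scd3, Elovl3 and Fa2h by 57.7-fold to 111.3-fold and Mc5r by 12.6-fold, while Scd1 and Soat1 did not pass the test. Of all genes tested, 29.8% were called, 15.1% lower and 14.6% higher. The median log2 fold change of the 9 genes was -5.92, beside -0.07 over all genes tested. The libraries of both groups did not overlap for 8 of the 9 genes, all lower in allogeneic skin, where 19.9% of all genes were lower without overlap. Whole skin was sequenced, so fewer gland cells and less RNA per gland cell cannot be told apart.

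The same 7 genes were higher again in both treated groups. Against allogeneic vehicle skin, 8 of 9 rose with Wnt-C59 (50.8% of all genes were called, 24.6% higher and 26.2% lower) and 7 of 9 with the combination (54.5% of all genes, 27.1% higher and 27.4% lower). Median log2 fold changes were 6.91 and 6.17, beside 0.00 and 0.01 over all genes. For Wnt-C59 the 8 became 9 with the GC trend removed, where calls over all genes went from 9481 to 7303. They became 7 when only these groups were fitted, where 8960 genes were called in all. Without overlap, 7 genes were higher in each treated group, where 26.4% and 25.6% of all genes were. These comparisons share the 3 allogeneic libraries with the first one and with each other, so the size of the fall and that of the rise are not independent.

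**Figure D1:**
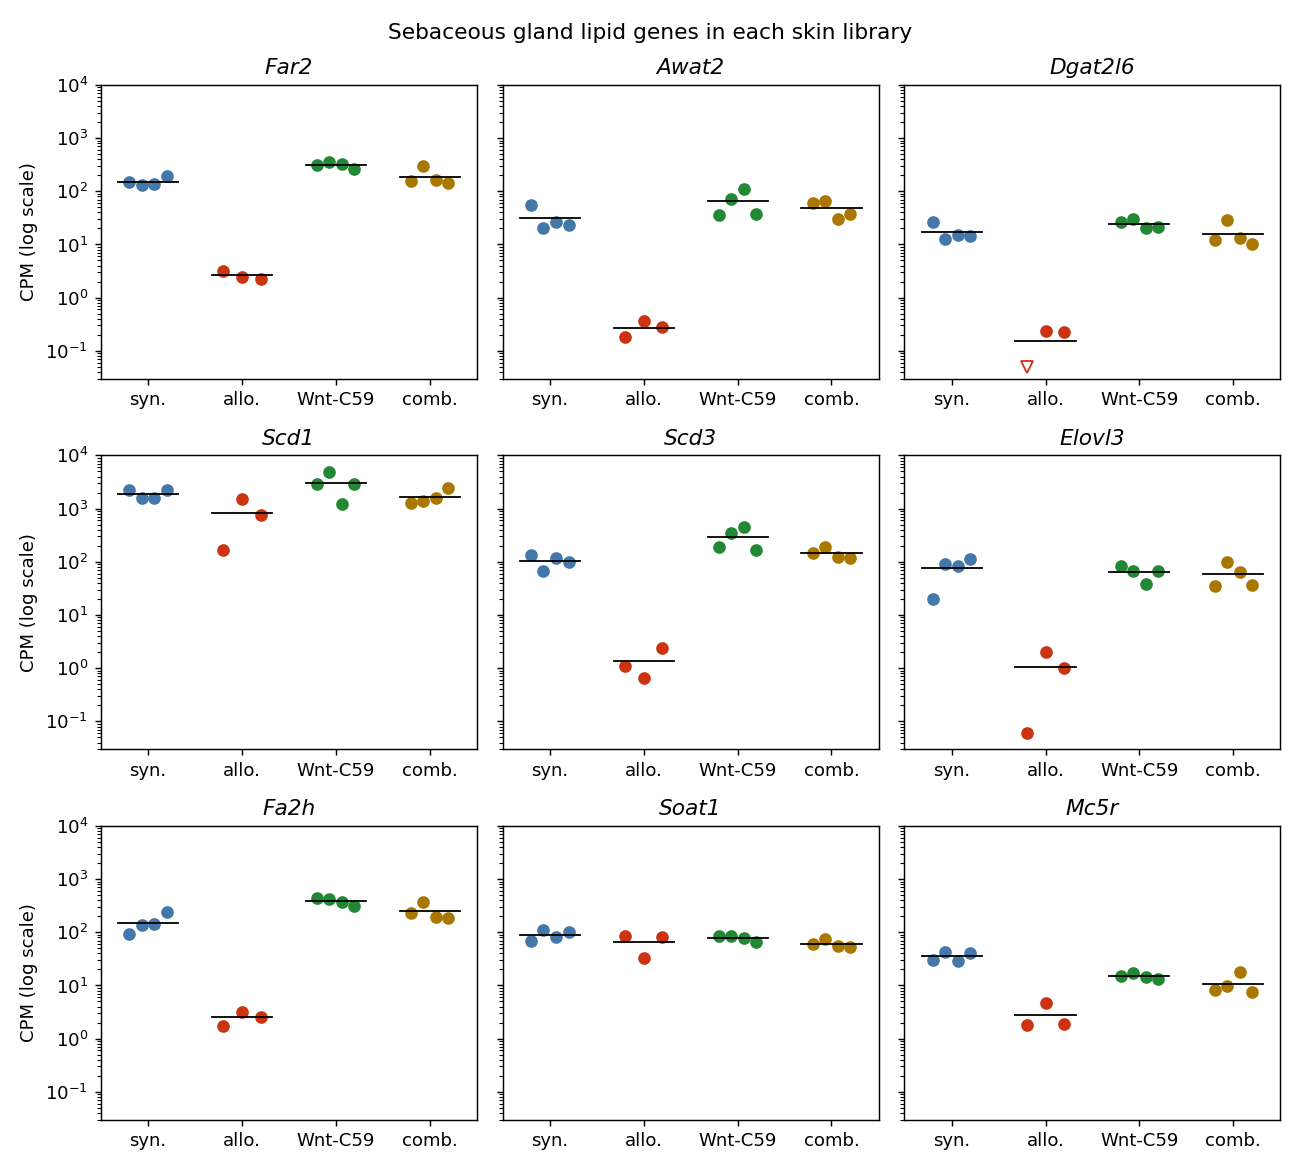
CPM (log scale) of each of the 9 genes in the 4 syngeneic, 3 allogeneic, 4 Wnt-C59 and 4 combination libraries, in order of library number. Points are libraries, lines are group means, and the open triangle marks a count of 0 for Dgat2l6 in allogeneic 1; 7 of the 9 genes dropped far below the other groups in allogeneic skin, Scd1 less so and Soat1 hardly.

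Far2, the enzyme that reduces fatty acids to the fatty alcohols of wax esters, was at 153, 129, 135 and 190 CPM in syngeneic libraries 1 to 4 and at 3.22, 2.45 and 2.20 CPM in allogeneic libraries 1 to 3. The groups were far apart and each was tight. In the edgeR fit Far2 was 57.7-fold lower in allogeneic skin (log2 fold change -5.85, SE 0.31, adjusted p = 8.4e-08). Wnt-C59 libraries 1, 2, 4 and 5 held 306, 362, 328 and 267 CPM, and combination libraries 2, 3, 4 and 5 held 156, 294, 164 and 146 CPM. Every treated library was above every allogeneic one, and every Wnt-C59 library was also above every syngeneic one. Far2 was 120.1-fold higher with Wnt-C59 (log2 fold change 6.91, SE 0.32, adjusted p = 1.4e-08) and 72.2-fold higher with the combination (6.17, SE 0.31, adjusted p = 3.3e-08).

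Awat2, which joins a fatty alcohol to a fatty acid to make a wax ester, was at 55.1, 20, 26.6 and 23.4 CPM in the syngeneic libraries and at 0.182, 0.359 and 0.282 CPM in the allogeneic ones. Those 3 allogeneic values rest on 14 counts in all. The fall was 111.3-fold (log2 fold change -6.80, SE 0.66, adjusted p = 1.4e-05). With Wnt-C59 the libraries reached 36.5, 71.0, 112.8 and 37.7 CPM, and with the combination 60.6, 65.8, 30.1 and 37.5 CPM. Both treated groups were above all allogeneic libraries and overlapped with each other and with syngeneic skin. The rise was 229.6-fold with Wnt-C59 (log2 7.84, SE 0.68, adjusted p = 4.3e-06) and 172.6-fold with the combination (log2 7.43, SE 0.67, adjusted p = 4e-06).

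Dgat2l6, a member of the same acyltransferase family, was the least abundant of these 3 genes, at 26.5, 12.5, 15.3 and 14.6 CPM in the syngeneic libraries. In allogeneic skin it was at 0, 0.239 and 0.226 CPM, which are 8 counts in all, and the count of 0 in allogeneic 1 allows up to 0.182 CPM (3 counts, counting error only). It was 105.8-fold lower than in syngeneic skin (log2 fold change -6.73, SE 0.62, adjusted p = 8.2e-06). Wnt-C59 libraries held 26.9, 30.1, 20.1 and 21.6 CPM and combination libraries 11.9, 28.6, 13.0 and 10.1 CPM, with combination 3 well above the other libraries of its group. The rises were 151.6-fold (log2 7.24, SE 0.63, adjusted p = 3.1e-06) and 97.8-fold (log2 6.61, SE 0.62, adjusted p = 4e-06).

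Other genes of fatty alcohol, wax ester and triglyceride synthesis came from a list of 12, of which 11 were tested. In allogeneic skin 1 of them was lower and 1 higher, with a median log2 fold change of -0.12, so 2 of 11 were called where 29.8% of all genes were. The lower one was Awat1, the other mouse wax alcohol acyltransferase of sebaceous glands, at 35.9 CPM in syngeneic and 0.193 CPM in allogeneic skin (log2 fold change -7.48, SE 0.55, adjusted p = 1.8e-06). Lpin1, a phosphatidate phosphatase, was the higher one (25.7 to 65.3 CPM, adjusted p = 0.0018). With Wnt-C59 6 rose and 2 fell (24.6% and 26.2% of all genes), and with the combination 5 rose and 3 fell (27.1% and 27.4%). Awat1 rose to 86.1 CPM with Wnt-C59 (log2 fold change 8.74, SE 0.57, adjusted p = 3.6e-07) and 68.9 CPM with the combination. Far1, the fatty acid reductase of ether lipid synthesis, and Agps, a peroxisomal enzyme of the same route, were the 2 that fell with Wnt-C59. Far1 was at 74.6 CPM in allogeneic skin and 21.1 CPM with Wnt-C59 (log2 fold change -1.82, SE 0.21, adjusted p = 1.9e-05), so the 2 fatty acid reductases moved in opposite directions there. It was at 80.2 CPM in syngeneic skin and 19.8 CPM with the combination, so it was low in treated skin only. For Far1, treatment and a difference in library preparation cannot be told apart.

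The desaturases make the monounsaturated fatty acids that are built into sebum lipids and into the fat of adipocytes. Scd1, the main desaturase of skin, was at 2246, 1558, 1585 and 2260 CPM in the syngeneic libraries and at 165.3, 1518 and 763.9 CPM in the allogeneic ones. No allogeneic library reached a syngeneic one, but allogeneic 2 was close, and the fall did not pass the test (log2 fold change -1.23, SE 0.58, 95% interval -2.47 to 0.01, adjusted p = 0.12). It did pass with DESeq2 (log2 -1.23, adjusted p = 0.048), with limma-voom (log2 -1.71, adjusted p = 0.044) and without allogeneic 2 (log2 -2.01, adjusted p = 0.025). Wnt-C59 libraries held 2903, 4970, 1234 and 2933 CPM, and Scd1 was called 3.69-fold higher than in allogeneic skin (log2 1.88, SE 0.59, adjusted p = 0.017), although Wnt-C59 4 lay below allogeneic 2. That call was lost without allogeneic 3 (log2 1.84, adjusted p = 0.055) and when only these 2 groups were fitted (adjusted p = 0.067). Combination libraries held 1297, 1389, 1587 and 2478 CPM, a difference from allogeneic skin that did not pass (log2 1.05, SE 0.57, 95% interval -0.18 to 2.28, adjusted p = 0.14). It passed with limma-voom (log2 1.5, adjusted p = 0.044) and without allogeneic 2 (log2 1.90, adjusted p = 0.017).

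Scd1 is also abundant in fat, so white adipocyte markers are given beside it. Their summed level over 10 markers was 1029, 1275, 2185 and 1267 CPM in syngeneic libraries 1 to 4 and 427.0, 1013 and 693.5 CPM in allogeneic libraries 1 to 3. The order of the libraries was that of Scd1 in allogeneic and in Wnt-C59 skin. It was not in syngeneic skin, where library 1 had the lowest sum and library 3 the highest. In Wnt-C59 4, the Wnt-C59 library with the least Scd1, it was 1125 CPM against 2870 to 3611 CPM in the other 3. Combination libraries held 2571 to 3496 CPM, all above syngeneic skin although mean Scd1 was lower there, and the highest sum was in combination 2, which had the least Scd1 of its group. Of the 10 markers, 2 were lower in allogeneic against syngeneic skin (15.1% of all genes), 10 were higher with Wnt-C59 (24.6%) and 9 with the combination (27.1%). With the mean marker level as a covariate the log2 fold change of Scd1 was -0.16 with Wnt-C59 against allogeneic skin (adjusted p = 0.89). The covariate itself differed between these groups, and with it the genes called in this comparison went from 9481 to 3568. The part of adipocytes in the level of Scd1 therefore cannot be told apart from treatment with this fit.

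Scd3, a desaturase that in mouse skin is found in sebocytes, was at 133.5, 67.9, 120 and 97.4 CPM in the syngeneic libraries and at 1.09, 0.659 and 2.37 CPM in the allogeneic ones. Unlike Scd1 it was nearly gone from all 3 allogeneic libraries. It was 75.5-fold lower (log2 fold change -6.24, SE 0.53, adjusted p = 5.3e-06). Treated skin held 193, 344, 457 and 168 CPM with Wnt-C59 and 145, 190, 124 and 116 CPM with the combination. The rises were 209.5-fold (log2 7.71, SE 0.56, adjusted p = 1.1e-06) and 103.6-fold (log2 6.70, SE 0.54, adjusted p = 2.2e-06). The Scd3 count as a share of the Scd1 count was 4.31% to 7.56% in syngeneic libraries and 0.665%, 0.0434% and 0.311% in allogeneic libraries 1 to 3. In allogeneic 2 only 11.0 estimated counts of Scd3 stood beside 25352 of Scd1, so no more than these could have been Scd1 reads counted as Scd3. The share was 5.74% to 6.91% in Wnt-C59 libraries 1, 2 and 5, 37.0% in Wnt-C59 4 and 4.67% to 13.7% in the combination.

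The other desaturases behaved differently from each other. Scd2, found in many tissues, fell from 386.5 to 213.5 CPM in allogeneic skin (log2 -0.86, SE 0.21, adjusted p = 0.0064) and was lower still with Wnt-C59 at 135.5 CPM (log2 -0.66, SE 0.20, adjusted p = 0.014). Scd4 was at 2.99 CPM in syngeneic, 0.348 CPM in allogeneic and 1.69 CPM in Wnt-C59 skin, called in both comparisons (adjusted p = 0.00053 and 0.0020). Counted as 1 gene, the 4 desaturases together were lower in allogeneic skin (log2 -1.22, SE 0.43, adjusted p = 0.046) and higher with Wnt-C59 (log2 1.74, SE 0.44, adjusted p = 0.0047), and the combination did not pass (log2 0.96, adjusted p = 0.070). That summed row was added after the data were seen.

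Elovl3, which lengthens saturated and monounsaturated fatty acids in sebaceous glands and brown fat, was at 19.9, 90.6, 83.4 and 112 CPM in the syngeneic libraries and at 0.0607, 2.04 and 1.01 CPM in the allogeneic ones. Syngeneic 1 was the low library, yet still well above allogeneic skin. The fall was 73.3-fold (log2 fold change -6.19, SE 0.88, adjusted p = 0.00028). Wnt-C59 libraries held 82.1, 66.3, 38.5 and 66.7 CPM and combination libraries 35.6, 101, 64.6 and 35.9 CPM. Those values fall inside the syngeneic range, and the rises over allogeneic skin were 60.7-fold (log2 5.92, SE 0.87, adjusted p = 0.00015) and 56.7-fold (log2 5.83, SE 0.86, adjusted p = 0.00013). Ucp1, the defining gene of brown fat, never exceeded 0.38 CPM and was at 0 in 4 libraries, and the 6 brown fat markers summed to 45.0 to 68.3 CPM in syngeneic, 69.4 to 176.2 CPM in allogeneic, 70.6 to 179.5 CPM in Wnt-C59 and 17.6 to 118.7 CPM in combination skin. The part of brown fat in the level of Elovl3 was not tested.

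Fatty acid synthesis, elongation and desaturation were followed in a list of 20 other genes. In allogeneic skin 10 were lower and 1 higher (15.1% and 14.6% of all genes), with a median log2 fold change of -0.72. The largest falls among the genes named were those of Elovl6, which elongates palmitate (400.7 to 28.4 CPM, log2 -3.82, SE 0.48, adjusted p = 8.7e-05), and Fads2, a desaturase of sebum and of polyunsaturated fatty acids (74.1 to 5.60 CPM, log2 -3.72, SE 0.53, adjusted p = 0.00024). With Wnt-C59 14 rose and 3 fell (24.6% and 26.2% of all genes), and with the combination 11 rose and 2 fell (27.1% and 27.4%). Acsbg1, an acyl-CoA synthetase, rose from 127.8 to 459.5 CPM with Wnt-C59 (log2 1.85, SE 0.19, adjusted p = 8.8e-06), and Tecr, which completes each round of elongation, rose from 126.5 to 520.2 CPM (log2 2.04, SE 0.25, adjusted p = 2.2e-05).

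Fa2h adds a hydroxyl group to fatty acids that go into sphingolipids of sebum, epidermis and myelin. It was at 93.6, 137, 141 and 239 CPM in the syngeneic libraries and at 1.70, 3.23 and 2.59 CPM in the allogeneic ones. There was no overlap, and the fall was 60.7-fold (log2 fold change -5.92, SE 0.40, adjusted p = 8.9e-07). Wnt-C59 libraries held 437, 429, 368 and 316.5 CPM and combination libraries 235, 372, 197 and 184 CPM. Every Wnt-C59 library was above every syngeneic one, while the combination overlapped with syngeneic skin. Rises over allogeneic skin were 154.0-fold (log2 7.27, SE 0.43, adjusted p = 1e-07) and 98.1-fold (log2 6.62, SE 0.42, adjusted p = 2.6e-07). Fa2h is also made by Schwann cells, whose 7 markers summed to 170.1 to 248.6 CPM in syngeneic, 241.5 to 413.6 CPM in allogeneic, 514.8 to 850.4 CPM in Wnt-C59 and 358.8 to 918.6 CPM in combination libraries. In allogeneic against syngeneic skin 3 of the 7 were called higher (14.6% of all genes). With Wnt-C59 against allogeneic skin 3 of the markers were higher and 1 lower (24.6% and 26.2% of all genes). Their part in the level of Fa2h was not tested.

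Partner genes of sphingolipid synthesis came from a list of 12. In allogeneic skin 6 rose and 1 fell (14.6% and 15.1% of all genes), with a median log2 fold change of 0.56. Cers4, a ceramide synthase of the sebaceous gland and hair follicle, was the one that fell (154.3 to 15.9 CPM, log2 -3.27, SE 0.21, adjusted p = 5.8e-07). Cers3, the ceramide synthase of the epidermal barrier, was among those that rose (48.6 to 88.6 CPM, log2 0.87, SE 0.16, adjusted p = 0.0011). With Wnt-C59 3 rose and 5 fell (24.6% and 26.2% of all genes). With the combination 3 rose and 2 fell, fewer in all than the 54.5% of all genes called there. Cers4 rose to 232.4 CPM with Wnt-C59 (log2 3.87, SE 0.21, adjusted p = 5.6e-08), and Cers3 fell to 31.6 CPM (log2 -1.49, SE 0.16, adjusted p = 1.2e-05).

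Soat1, which makes cholesterol esters, was the one gene of the 9 that was called in none of the 6 comparisons. It was at 68.4, 113, 80.6 and 99.9 CPM in the syngeneic libraries and at 85.2, 33.5 and 80.1 CPM in the allogeneic ones, which overlapped (log2 fold change -0.45, SE 0.27, 95% interval -1.02 to 0.12, adjusted p = 0.22). Allogeneic 2 alone was below the syngeneic range. Wnt-C59 libraries held 85.6, 86.2, 77.1 and 64.4 CPM (log2 0.24 against allogeneic, SE 0.27, adjusted p = 0.48), and combination libraries 60.7, 76.2, 54.9 and 53.5 CPM (log2 -0.11, SE 0.27, adjusted p = 0.74). With the GC trend removed the value for Wnt-C59 was 0.88 (adjusted p = 0.024). Soat1 is also a gene of lipid-laden macrophages, and the summed level of 7 macrophage markers was 377.9 to 698.4 CPM in syngeneic, 3166 to 4093 CPM in allogeneic, 965.1 to 1557 CPM in Wnt-C59 and 1126 to 2098 CPM in combination skin. All 7 were called higher in allogeneic against syngeneic skin (14.6% of all genes), and their part in the level of Soat1 was not tested.

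In a list of 12 other genes of sterol synthesis and esterification, 5 were lower and 1 higher in allogeneic skin (29.8% of all genes were called), 4 rose and 1 fell with Wnt-C59 (50.8%), and 5 rose and 1 fell with the combination (54.5%). Hmgcs1, an early enzyme of cholesterol synthesis, was among those lower in allogeneic skin (338.3 to 172.6 CPM, log2 -0.97, SE 0.17, adjusted p = 0.00076). Nceh1, which hydrolyses cholesterol esters, went the other way, at 12.9 CPM in syngeneic, 25.6 CPM in allogeneic and 12.8 CPM in Wnt-C59 skin (adjusted p = 0.0045 for the rise and 0.0021 for the fall).

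Mc5r, the receptor through which melanocortins promote sebum secretion in mice, was at 30.0, 42.4, 28.4 and 40.7 CPM in the syngeneic libraries and at 1.82, 4.67 and 1.92 CPM in the allogeneic ones, a fall of 12.6-fold (log2 fold change -3.66, SE 0.39, adjusted p = 2e-05). Wnt-C59 libraries held 14.8, 17.3, 14.5 and 13.0 CPM and combination libraries 8.38, 9.67, 17.8 and 7.60 CPM. All 8 treated libraries lay between the allogeneic and the syngeneic ranges. The rise over allogeneic skin was 5.30-fold with Wnt-C59 (log2 2.41, SE 0.37, adjusted p = 0.00012) and 3.86-fold with the combination (log2 1.95, SE 0.36, adjusted p = 0.00042). With the GC trend removed the rises were larger, at log2 3.04 (adjusted p = 5.7e-05) and 2.67 (adjusted p = 0.00012). The call for the combination was lost with the adipocyte marker covariate (log2 1.34, adjusted p = 0.12).

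Of 10 listed genes of melanocortin signalling 9 were in the table and 7 could be tested. Pomc, the precursor of the hormones, was at group means of 0.0622 to 0.261 CPM and was not tested. In allogeneic skin 3 were lower (15.1% of all genes), among them Mc1r, the pigment cell receptor, at 4.19 CPM in syngeneic and 0.357 CPM in allogeneic skin (log2 -3.53, SE 0.90, adjusted p = 0.0086). With Wnt-C59 3 rose (24.6% of all genes) and with the combination 4 (27.1%). Gnas, which encodes the G protein subunit downstream of these receptors, rose from 424.5 to 985.2 CPM with Wnt-C59 (log2 1.21, SE 0.27, adjusted p = 0.0019), and Mrap, an accessory protein of melanocortin receptors, rose from 6.54 to 21.9 CPM (log2 1.75, SE 0.52, adjusted p = 0.013).

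**Figure D2:**
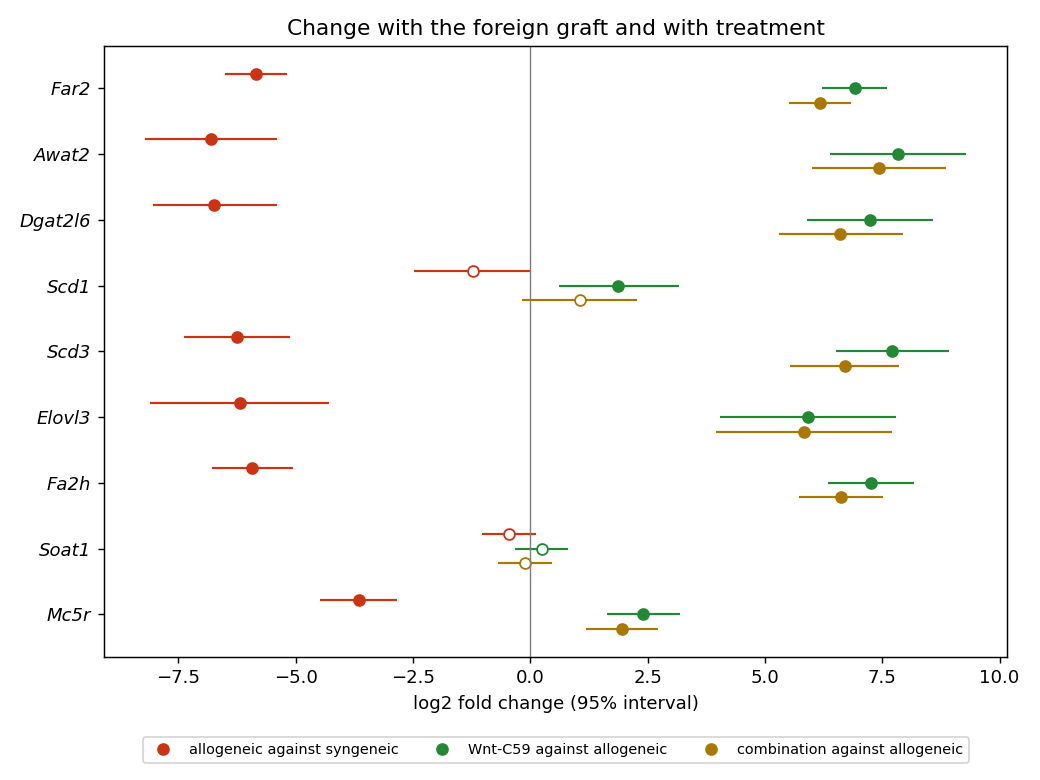
Log2 fold change with its 95% interval (x axis) of the 9 genes for allogeneic against syngeneic, Wnt-C59 against allogeneic and combination against allogeneic skin; filled points passed the test at an adjusted p under 0.05. The points of Far2, Awat2, Dgat2l6, Scd3, Elovl3 and Fa2h lie between -6.80 and -5.85 for the fall and between 5.83 and 7.84 for the rises, those of Mc5r at -3.66, 2.41 and 1.95 (3.04 and 2.67 for the rises with the GC trend removed), and Scd1 and Soat1 lie nearest 0.

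Treated skin was then set beside syngeneic skin to see how far each gene returned. With Wnt-C59 4 of the 9 were higher and 1 lower, while 53.1% of all genes were called, 26% higher and 27% lower. The 4 were Far2 at 315.6 ± 39.9 against 151.6 ± 27.4 CPM (SD, n = 4 each; log2 1.06, SE 0.22, adjusted p = 0.0011), Scd3 at 290.3 ± 135.3 against 104.6 ± 28.7 CPM (log2 1.47, SE 0.37, adjusted p = 0.0042), Fa2h at 387.5 ± 56.4 against 152.6 ± 61.6 CPM (log2 1.34, SE 0.29, adjusted p = 0.0014) and Awat2 at 64.5 ± 35.9 against 31.3 ± 16.1 CPM (log2 1.04, SE 0.41, adjusted p = 0.043). The first 3 did not overlap with syngeneic skin, where 24.6% of all genes were higher without overlap. Awat2 overlapped, and its call was lost in 7 of 16 alternative settings, for example without Wnt-C59 4 (log2 0.63, adjusted p = 0.18). Mc5r was the lower one, at 14.9 ± 1.80 against 35.4 ± 7.17 CPM (log2 -1.25, SE 0.31, adjusted p = 0.0036), without overlap (26% of all genes), and with the GC trend removed it was -0.70 (adjusted p = 0.069). Scd1 (log2 0.65, interval -0.46 to 1.77), Dgat2l6 (0.52, -0.28 to 1.32), Elovl3 (-0.27, -1.55 to 1.01) and Soat1 (-0.21, -0.73 to 0.32) did not pass.

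With the combination only Mc5r differed from syngeneic skin, at 10.9 ± 4.70 CPM (log2 -1.71, SE 0.31, adjusted p = 0.00039), beside 54.1% of all genes called, 26.9% higher and 27.2% lower. Its groups did not overlap, where 23.8% of all genes were lower without overlap. This call held in all 16 alternative settings, with log2 fold changes of -2.05 to -1.07. Fa2h was at the edge of the threshold, at 246.9 ± 86.2 CPM (log2 0.69, 95% interval 0.09 to 1.30, adjusted p = 0.0503), and was called in 5 of 16 settings. With the GC trend removed Far2 was called higher (log2 0.67, adjusted p = 0.026), and with the adipocyte marker covariate Scd1 was called lower (log2 -1.31, adjusted p = 0.028). Intervals of the others were -0.14 to 0.78 for Far2, -0.23 to 1.5 for Awat2, -0.91 to 0.68 for Dgat2l6, -1.29 to 0.93 for Scd1, -0.31 to 1.23 for Scd3, -1.65 to 0.91 for Elovl3 and -1.09 to -0.03 for Soat1 (adjusted p = 0.068).

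The combination was compared with Wnt-C59 alone to see what belumosudil added. None of the 9 genes was called by edgeR, where 0.231% of all genes were called in either direction. At an unadjusted p under 0.05 there were 3 (Far2, Scd3 and Fa2h). The share of all genes at that level was not counted, so this number has nothing to be set against. DESeq2 called 1 (Far2, log2 -0.71, adjusted p = 0.034), beside 1507 genes in all, and limma-voom called 0, beside 60 in all. All 9 estimates were below 0, with a median of -0.63, and the libraries of both groups overlapped for all 9 genes, where 13.1% of all genes did not overlap. The log2 fold change was -0.73 for Far2 (95% interval -1.20 to -0.27, adjusted p = 0.1), -1.02 for Scd3 (-1.79 to -0.24, adjusted p = 0.15), -0.65 for Fa2h (-1.25 to -0.05, adjusted p = 0.21) and -0.10 for Elovl3 (-1.38 to 1.18, adjusted p = 0.95). The intervals of all genes but Soat1 (-0.88 to 0.17) reach beyond a log2 fold change of -1, so the 2 treatments are not shown to act alike.

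**Figure D3:**
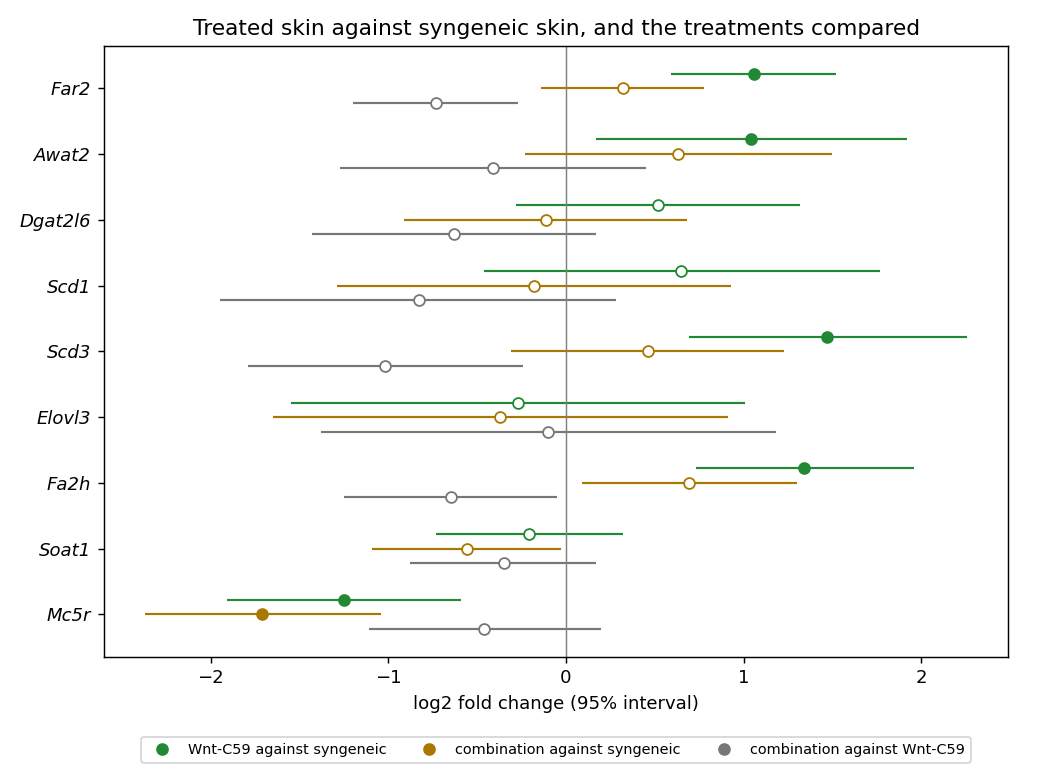
Log2 fold change with its 95% interval (x axis) of the 9 genes for each treated group against syngeneic skin and for the combination against Wnt-C59; filled points passed the test at an adjusted p under 0.05. Far2, Awat2, Scd3 and Fa2h lie above syngeneic skin with Wnt-C59 (log2 1.04 to 1.47), Mc5r lies below it in both treated groups (-1.25 and -1.71), and no point of the combination against Wnt-C59 is filled.

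The order of the 4 group means differed between genes. Far2, Awat2, Scd3 and Fa2h had their highest mean with Wnt-C59, then the combination, then syngeneic skin, and allogeneic skin last, and in each the combination overlapped with both neighbours. Scd1 and Dgat2l6 had Wnt-C59 above syngeneic skin and the combination after it, with all 3 overlapping and allogeneic skin last. Elovl3 and Mc5r had syngeneic skin first, then Wnt-C59, the combination and allogeneic skin, and syngeneic skin was clear of both treated groups for Mc5r but not for Elovl3. Soat1 had syngeneic skin first, then Wnt-C59, allogeneic skin and the combination, with all 4 overlapping. Within the combination group, library 3 was the highest for 7 of the 9 genes and library 5 the lowest for 6, while in allogeneic skin library 2 was highest for 6 and library 1 lowest for 6. Summed over the 8 genes other than Scd1, syngeneic libraries held 579.6 to 817.4 CPM, allogeneic 47.1 to 93.2, Wnt-C59 955.1 to 1416 and combination 589.8 to 1137 CPM. Soat1 made up most of what was left in allogeneic skin.

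The identity of the gland was checked with 15 regulators and structural genes of sebocytes and the sebaceous duct. In allogeneic skin 7 were lower and 2 higher (15.1% and 14.6% of all genes), with a median log2 fold change of -0.48. In each treated group 9 rose and 1 fell against allogeneic skin, where 24.6% of all genes rose with Wnt-C59 and 27.1% with the combination. Gata6, a transcription factor of the sebaceous duct, was at 9.17 CPM in syngeneic, 0.997 CPM in allogeneic, 18.1 CPM in Wnt-C59 and 17.0 CPM in combination skin (log2 -3.19 for the fall, adjusted p = 6.3e-06, and 4.17 for the rise with Wnt-C59, adjusted p = 6.7e-07). Krt79, a keratin of the duct, fell from 1179 to 150.4 CPM (log2 -2.97, SE 0.46, adjusted p = 0.00031) and rose to 1974 CPM with Wnt-C59 (log2 3.71, SE 0.48, adjusted p = 3.6e-05). Pparg, the lipid-sensing nuclear receptor of sebocytes and adipocytes, fell from 20.3 to 9.26 CPM (log2 -1.13, SE 0.22, adjusted p = 0.0016) and rose to 33.9 CPM with Wnt-C59 (log2 1.87, SE 0.23, adjusted p = 2.2e-05). Lrig1 (136.7 to 35.6 CPM) and Sox9 (97.6 to 16.5 CPM), genes of the stem cells that supply the gland and follicle, also fell (adjusted p = 4.3e-05 and 6e-06).

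Among 12 lipid droplet proteins and lipases, 3 were lower and 2 higher in allogeneic skin (29.8% of all genes were called), while 9 rose and 2 fell with Wnt-C59 (50.8%) and 8 rose and 2 fell with the combination (54.5%). Cidea, a droplet protein of sebocytes and fat, went from 33.5 to 1.81 CPM (log2 -4.20, SE 0.44, adjusted p = 2.6e-05) and to 86.7 CPM with Wnt-C59 (log2 5.58, SE 0.47, adjusted p = 3e-06). Mgll, a monoglyceride lipase, went from 259.6 to 49.1 and 590.9 CPM in the same order (adjusted p = 8.3e-05 and 4.3e-06). Lipa, the lysosomal lipase, was higher in allogeneic skin (18.9 to 49.1 CPM, log2 1.38, SE 0.18, adjusted p = 0.0001).

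Hair follicle markers are given beside the gland genes because both structures share a unit of the skin. The 10 markers of the growing follicle summed to 7758 to 23755 CPM in syngeneic skin and 20.7 to 26.2 CPM in allogeneic skin, where all 10 were called lower (15.1% of all genes). In Wnt-C59 skin they summed to 85.8 to 102.2 CPM, above allogeneic and far below syngeneic skin, where the sum of the 8 gland genes without Scd1 was above every syngeneic library. Most of that follicle sum was Lhx2, a transcription factor of follicle stem and progenitor cells, at 78.1 CPM in syngeneic, 3.08 CPM in allogeneic and 66.2 CPM in Wnt-C59 skin (log2 4.42 for the rise, SE 0.60, adjusted p = 7.7e-05). It was the one marker of the 10 called higher with Wnt-C59 (24.6% of all genes), and the other 9 were called lower than in syngeneic skin (27%). Combination libraries 2 and 3 held 69.7 and 54.1 CPM and libraries 4 and 5 held 39876 and 5377 CPM of follicle markers. The 8 gland genes without Scd1 differed far less between these pairs, and in the other direction. They summed to 712.8 and 1137 CPM in libraries 2 and 3 and to 664.9 and 589.8 CPM in 4 and 5. Not every gene kept that order, Far2 and Mc5r being exceptions. Other cell types also varied, and their part in the results was not tested. In allogeneic against syngeneic skin 4 of 8 interfollicular epidermis markers were higher (14.6% of all genes) and 4 of 6 fibroblast markers lower (15.1%). The 6 skeletal muscle markers summed to 2872 to 4939 CPM in syngeneic skin, 6668 to 26609.5 CPM in allogeneic skin and 17.7 to 40288 CPM in the treated libraries.

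**Figure D4:**
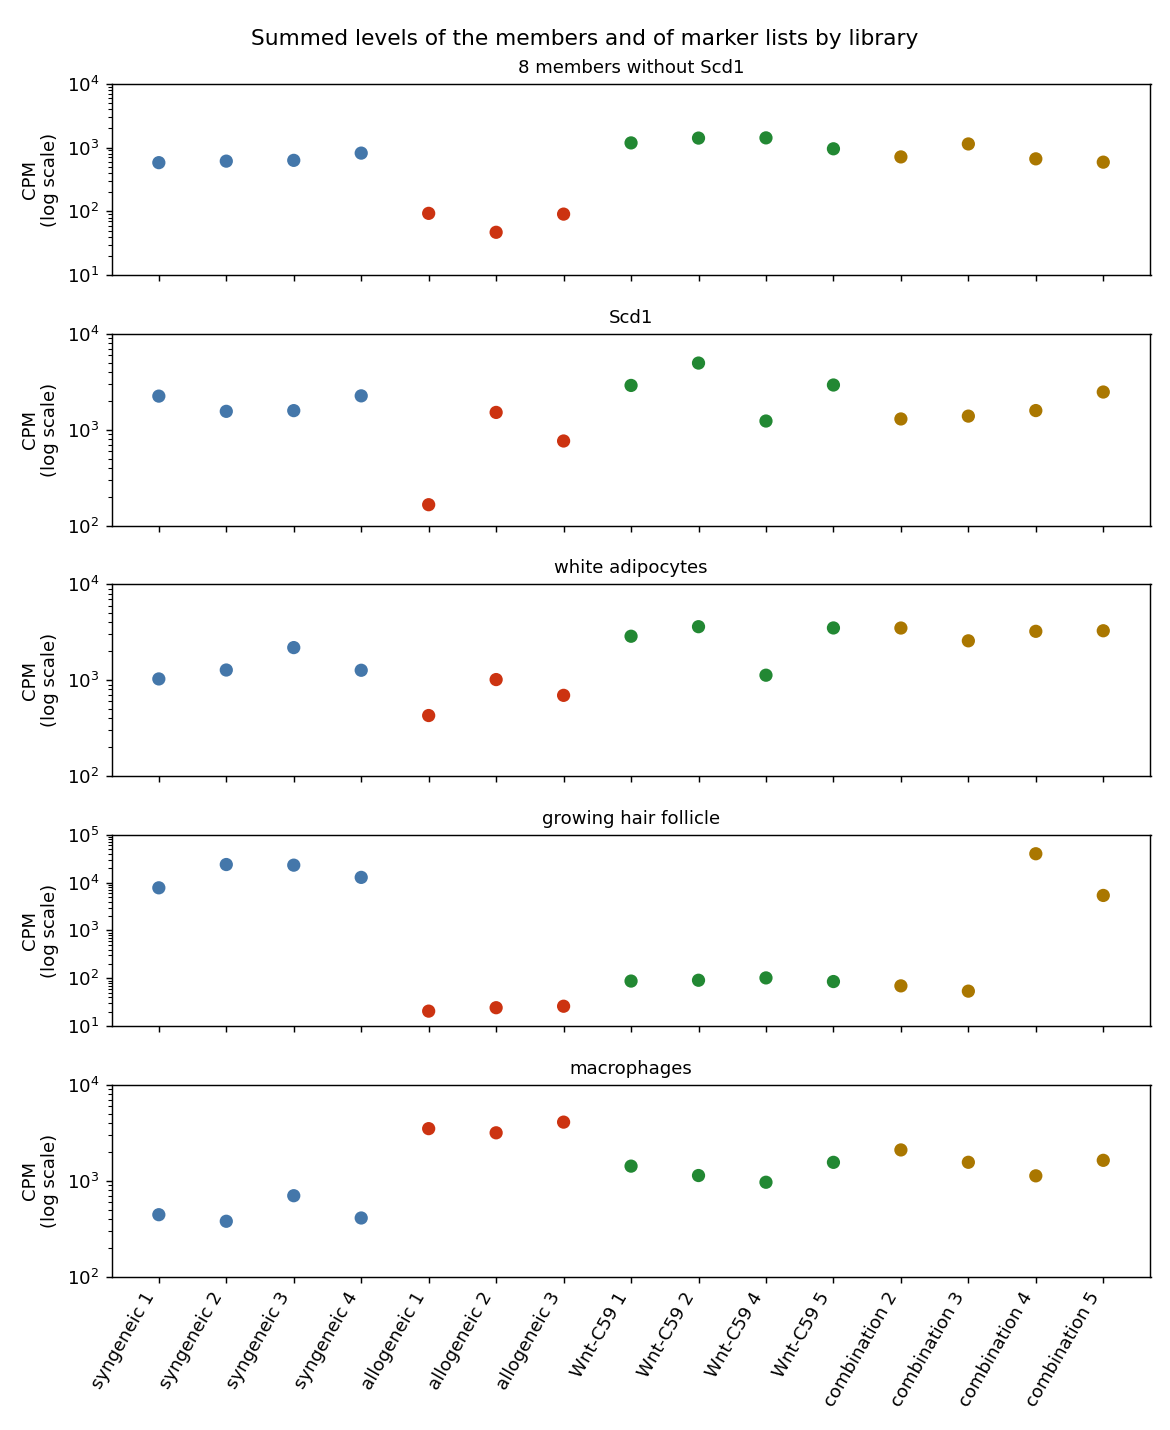
Summed CPM (log scale) in each of the 15 libraries of the 8 genes without Scd1, of Scd1 alone, and of the marker lists for white adipocytes, growing hair follicle and macrophages. The gland genes are low only in the 3 allogeneic libraries (47.1 to 93.2 CPM). Scd1 follows the order of the adipocyte markers within the allogeneic and Wnt-C59 groups but not within syngeneic or combination skin. Follicle markers differ between combination libraries 2 and 3 and libraries 4 and 5.

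The genes whose pattern over the 15 libraries was most like that of the 9 were sought among 12081 genes whose mean reached 5 CPM, by the root mean square difference of centred log2 CPM from the median of the 9. The 8 closest were Cyp2j12 (0.31), Panx3 (0.38), Hsd3b6 (0.45), Cyp3a57 (0.47), Cyp1a1 (0.48), Acox2 (0.57), Aadacl4 (0.70) and Cidea (0.74). Among the 9 themselves Dgat2l6 (0.33), Far2 (0.38) and Fa2h (0.41) were closest to that median, and Mc5r (1.63), Scd1 (1.80) and Soat1 (2.39) were farthest. Hsd3b6, a steroid dehydrogenase, was at 7.83 CPM in syngeneic, 0.0376 CPM in allogeneic, 14.6 CPM in Wnt-C59 and 12.9 CPM in combination skin. Acox2, a peroxisomal oxidase of branched-chain fatty acids and bile acid precursors, was at 12.3, 0.175, 34.8 and 28.1 CPM in the same order. Cyp1a1, the oxidase induced through the aryl hydrocarbon receptor, was at 11.4, 0.408, 25.1 and 19.0 CPM. Cyp2j12 had no counts in any allogeneic library, and it and Cyp3a57 have close gene copies, so their counts are uncertain.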

How the data were processed

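Skin RNA was sequenced from 4 groups of mice (15 libraries). The deposited values were taken as estimated counts per gene, since they hold fractions and sum to a different total in each library; no header names their unit. FastQC, Trim Galore, HISAT2, featureCounts and build GRCm39 are named in the submitters' processing notes, without versions or roles. Symbols were matched by identifier for 51276 of 56059 genes (91.5%), with GENCODE M21 (GRCm38) used for names, transcript sequences and GC content only. Strand settings are not given in the sources used here. Columns named for a vehicle group were matched by title. Wnt-C59 columns were matched by name, and the remaining columns, whose 2-letter code no label spells out, to the combination.

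Estimated counts were rounded and fitted with edgeR 4.0.16 in R 4.3.3 (TMM, filterByExpr by group, robust quasi-likelihood test, 4 groups in 1 fit, Benjamini-Hochberg over 18651 genes, called at an adjusted p under 0.05). SE is the log2 fold change divided by the square root of F, and intervals are 95%. The steps were tested on simulated data. Alternatives used DESeq2 1.42.0 and limma 3.58.1, other scalings, no filter, 2 groups only, a loess on GC content, an adipocyte covariate, libraries left out and the replicate number as a block.

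The 9 genes and all lists were chosen with earlier results of these data known. Genes named are the 9, up to 4 called genes per list by adjusted p in allogeneic against syngeneic and Wnt-C59 against allogeneic skin, and the 8 most alike. Scd2, Scd4, Pomc, Lhx2, and Pparg and Krt79 in allogeneic skin were named after their values were seen. Some genes that this rule names are not reported here.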

Additional observations from a re-analysis of the deposited data

Results flagged for a closer look

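Far2 in combination 3 stood apart from the rest of its group, at 293.8 CPM against 145.6 to 163.9 CPM in the other 3 libraries (gap 0.877 of the group's range). Dgat2l6 was the other gene with such a gap, in the same library, at 28.6 CPM against 10.1 to 13.0 CPM (0.845 of the range). Both exceed the critical value of 0.829 for groups of 4, over 27 groups tested, and chance gives about 1 in 20. Combination 3 was the highest of its group for 7 of the 9 genes, and why was not tested.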

How the results depend on the processing

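The 7 genes called lower in allogeneic skin were called under all 16 alternatives, and Far2, Awat2, Dgat2l6, Scd3, Elovl3 and Fa2h were called higher in both treated groups under all 15. Counts of the 9 genes called moved in all 6 comparisons. The 7 lower in allogeneic skin became 8 with DESeq2, limma-voom and without allogeneic 2. The 8 higher with Wnt-C59 became 9 with the GC trend removed and 7 with 2 groups only, the adipocyte covariate and without allogeneic 3. The 7 higher with the combination became 8 with limma-voom and without allogeneic 2, and 6 with the covariate. The 5 called in Wnt-C59 against syngeneic skin became 4 with no filter, 2 groups only, the GC trend removed, and without syngeneic 2, 3 or 4 or Wnt-C59 2 or 4. For the combination against syngeneic skin the count of 1 became 2 with DESeq2, limma-voom, 2 groups only and the GC trend removed, became 3 with the adipocyte covariate, and ranged from 1 to 2 as libraries were left out, whether syngeneic 1 or 4 or combination 3, 4 or 5. For the combination against Wnt-C59 the count of 0 became 1 with DESeq2.

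Some values that were not called changed sign. With the GC trend removed Soat1 was at 0.63 for the combination against allogeneic, 0.33 for Wnt-C59 against syngeneic and 0.08 for the combination against syngeneic skin, where Scd1 was at 0.13 and Dgat2l6 at 0.39. With the adipocyte covariate Scd1 was at -0.16 with Wnt-C59 (called in the main analysis) and -1.27 with the combination against allogeneic skin and -0.20 for Wnt-C59 against syngeneic skin, and Soat1 was at 0.85 for the combination against allogeneic and 0.03 for Wnt-C59 against syngeneic skin. With libraries left out, Soat1 ranged from -0.41 to 0.11 for the combination and from -0.08 to 0.47 for Wnt-C59 against allogeneic skin, Dgat2l6 from -0.56 to 0.20 for the combination against syngeneic skin, and Elovl3 from -0.48 to 0.10 and Awat2 from -0.61 to 0.00 for the combination against Wnt-C59. The cause was not tested.

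Over all genes, calls for the combination against Wnt-C59 were 43 in the main analysis, 1507 with DESeq2, 18 with 2 groups only, 147 with the adipocyte covariate and 1 (without combination 3) to 45 (without combination 4) with a library left out. The covariate gave 2440 calls against 5556 in allogeneic against syngeneic, 3568 against 9481 with Wnt-C59 and 3595 against 10168 with the combination against allogeneic skin. Removing the GC trend gave 7303 calls with Wnt-C59 and 7856 with the combination against allogeneic skin. Against syngeneic skin it gave 8434 and 8278, where the main analysis gave 9898 and 10081. With the replicate number as a block, in the 6 vehicle libraries with a shared number, 7 genes were still called lower (Far2 log2 -5.73) and 2869 genes in all. Same-numbered libraries correlated at -0.05, -0.14 and 0.01, and differently numbered ones at -0.02 to 0.11. With so few pairs, these values cannot settle whether the numbers pair the libraries. No paired analysis of the treated groups was possible, because their column numbers are not those of the titles. In allogeneic skin the levels of Awat2 and Dgat2l6 rest on 14 and 8 counts, which limits their fold changes.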
